A study of Mus musculus with 18 samples.

Results

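mir-191 and mir-425 are 2 miRNA hairpins whose genes lie close together on the same DNA strand. Their entries, mmu-mir-191 and mmu-mir-425, are 2 of the 1006 miRNA precursor entries counted in small RNA libraries of Baf3, an established mouse pro-B cell line grown with interleukin-3. The pair was chosen for its pattern in these data, mir-425 low and mir-191 little changed in the knockouts. Its differences between genotypes are therefore given as a description, without a test. All cells carried fluorescent reporters of mutated miR-15a and miR-16 and had stably received Cas9 with a guide RNA, followed by puromycin selection. The control group (Rag1_KO) received a guide to Rag1, a gene with no part in miRNA production. The SAFB group (Safb1 KO, Safb2 KO) received a guide to both Safb genes, and the ERH group (Erh KO) a guide to Erh. Knockout cells were sorted for a derepressed miR-15a reporter and regrown as polyclonal populations, so they are not clones. The sort means that knockout cells were selected for low miR-15a activity. Small RNA libraries do not read Safb or Erh mRNA, so the loss of the targeted genes was not checked here. How the control cells were sorted is not given in the sources used here. Each genotype had 2 guides, and each of the 6 guide populations gave 3 libraries, 1 per labelled batch, which makes 6 libraries per genotype and 18 in all.

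A miRNA is made when the Microprocessor, a complex of the nuclease Drosha and its partner Dgcr8, cuts a hairpin out of a longer primary transcript. Dicer then trims the hairpin to a short duplex, of which 1 strand, called the 5p or 3p arm, is loaded into an Argonaute protein and pairs with target mRNAs mainly through its seed. Hairpins that share a transcript form a cluster. In cluster assistance a hairpin that the Microprocessor cuts poorly is processed with the help of a well cut neighbour on the same transcript, and SAFB2 and ERH are known cofactors of this step. The ratio of the reads of 2 clustered hairpins within a library does not depend on how libraries are scaled. Where every primary transcript carries both hairpins, the ratio does not depend on how much transcript was made either. miR-191 is an abundant miRNA of many tissues, blood cells included. miR-425 has been studied in cancer cells.

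The mature sequences are shown because the small RNA reads of each entry come from these arms, with the seed (bases 2 to 8) in capitals; they are from RefSeq, build GRCm38.p6, 5′ to 3′.
miR-191-5p: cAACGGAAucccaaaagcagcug
miR-191-3p: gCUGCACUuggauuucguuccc
miR-425-5p: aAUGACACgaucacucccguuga
miR-425-3p: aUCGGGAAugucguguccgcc
The members shared no seed with each other. Among the 1738 mature mouse miRNAs of that table, 3 of the 4 arms had a seed found in no other gene. The fourth, miR-425-5p, shared its seed with miR-489-3p. The mir-489 entry had 0 counts in all 18 libraries, so no other miRNA with this seed was seen. The deposited counts give 1 value per hairpin and do not separate the arms.

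The hairpins lie on the plus strand of chromosome 9 in build GRCm38. Mir191 spans chr9:108568319-108568392 (74 bases) and Mir425 spans chr9:108568777-108568861 (85 bases), with 384 bases between them. Both lie inside the sole exon of transcript 4833445I07Rik-201, a long noncoding RNA at chr9:108567533-108569174. In transcript 4833445I07Rik-202 of the same gene, Mir191 falls in the intron between an exon ending at 108568180 and an exon starting at 108568484, and the transcript ends 2 bases before Mir425. As annotated, that transcript carries Mir191 without Mir425, and which transcripts were made was not measured. The RefSeq interval of the protein-coding gene Dalrd3, chr9:108567484-108572773, covers both hairpins. An annotated miRNA gene on the minus strand, Gm24083 (chr9:108568295-108568414), overlaps Mir191. Whether counting used strand is not given in the sources used here, so reads of Gm24083 and mir-191 cannot be told apart. The annotation gives each member a single gene copy, so each entry reads 1 locus.

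The annotated hairpin sequences, without flanks, are shown because their folds are compared next, with the mature arms in capitals (RefSeq, GRCm38.p6, plus strand).
mir-191: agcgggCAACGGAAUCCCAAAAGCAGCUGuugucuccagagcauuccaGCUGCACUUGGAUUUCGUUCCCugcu
mir-425: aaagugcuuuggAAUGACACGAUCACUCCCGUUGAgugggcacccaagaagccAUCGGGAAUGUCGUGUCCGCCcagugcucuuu
Both hairpins were predicted to fold with 28 base pairs and a single terminal loop (RNAfold). Their GC contents were close, 54.1% in each. The loop had 7 bases in mir-191 and 12 in mir-425, against a median of 6 over 1005 RefSeq hairpins; 88.1% of those had a smaller loop than mir-425. Unpaired bases made up 16.4% of the mir-191 stem and 23.3% of the mir-425 stem, and 72.5% of hairpins had a lower share than mir-425. The predicted free energy was -35.0 kcal/mol for mir-191 and -31.7 kcal/mol for mir-425, or -0.473 and -0.373 per base. Among 104 hairpins with a mean of at least 100 counts here, the median was -0.427 per base, so per base mir-191 was predicted to be more stable and mir-425 less stable than that median. By total free energy both were less stable than the median of the same 104, -37.2 kcal/mol. These are predictions of isolated hairpins. With 20 flanking bases on each side the fold of mir-191 kept 1 terminal loop, with 39 pairs and 22 unpaired stem bases, while that of mir-425 had 3 terminal loops, 35 pairs and 34 unpaired stem bases.

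Short motifs beside a hairpin are known to help the Microprocessor find and orient it. The bases just outside the arms are shown with the searched motif in capitals, read on the transcript strand from 4833445I07Rik-201.
mir-191 before the 5p arm: tccaaTGgctggacagcggg
mir-425 before the 5p arm: cagcaTGgaaagtgctttgg
mir-191 after the 3p arm: tgctctcctgcctgagCAGCgccct
mir-425 after the 3p arm: cagtgctctttcggcaCCTCccaaa
Only the transcript strand was searched. A CNNC starting 16 to 20 bases after the 3p arm was found in both members, at base 17 in each, and in 58.0% of 112 hairpins whose flanks could be read from annotated transcripts. A TG 12 to 15 bases before the 5p arm was also found in both, at base 15 in each, and in 40.2% of the 112. A TGT between the arms, with 3 bases of each arm included, was found in mir-191 and not in mir-425, and in 50.9% of the 112. The windows do not overlap. A match says only that these letters are there.

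The libraries held 2699323 to 4470073 miRNA counts. Of 6 haematopoietic marker miRNAs, all 6 were counted, and their summed level was 149647 to 176053 CPM (counts scaled to a fixed library size) in control, 154853 to 171972 in SAFB and 125991 to 158630 in ERH libraries, most of it mir-142a. Single markers went both ways: mir-223 had a mean of 9611 CPM in control, 17414 in SAFB and 9214 in ERH, and mir-181a 3114, 4662 and 4119. mir-146a had 1921, 1322 and 1602 CPM, mir-155 1754, 1609 and 1350, and mir-150 19.3, 4.91 and 9.29. Of 14 miRNAs listed as markers of liver, neurons, striated muscle, epithelium, stroma and endothelium, mir-126a, which blood progenitors also express, had a mean of 4333 CPM in control, 3485 in SAFB and 3179 in ERH. The other lists summed to at most 211.7 CPM (epithelium, in SAFB), and mir-124, the neuron marker, had no count in control. Of the 14, 9 were tested. In SAFB 3 were called higher (mir-200a, mir-200c and mir-143) and 1 lower (mir-126a), where 30.8% of all tested miRNAs were called higher and 25.3% lower. In ERH mir-122, the liver marker, was called higher and mir-126a lower, against 26.4% and 27.5% of all. mir-200a had a mean of 52.4 CPM in control, 73.9 in SAFB and 52.4 in ERH, mir-200c 15.6, 22.3 and 15.2, mir-143 14.1, 20.7 and 15.4, and mir-122 6.78, 11.6 and 17.1. The part of these differences in the results below was not tested.

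mir-425 was abundant in control cells and fell to a small remainder in both knockouts, whereas mir-191 stayed among the most abundant miRNAs throughout. The library sizes behind CPM are adjusted with a trimmed mean of M-values (TMM). mir-425 stood at 4297, 3072 and 3892 CPM in the 3 libraries of control guide 1 (batches 1, 2 and 3) and at 4608, 3511 and 4514 CPM with control guide 2. It stood at 161.9, 132.6 and 173.4 CPM with SAFB guide 1 and at 158.3, 142.4 and 154.9 CPM with SAFB guide 2. With ERH guide 1 it stood at 258.5, 381.7 and 199.5 CPM, and with ERH guide 2 at 261.7, 330.6 and 382.0 CPM. No knockout library came near a control library, and no ERH library fell as low as the highest SAFB library, so the order control, ERH, SAFB held without overlap. In raw counts mir-425 ranged from 9280 to 16873 in control, from 494 to 648 in SAFB and from 599 to 1471 in ERH libraries. Its abundance rank among the 1006 entries went from 32 to 39 in control to 91 to 102 in SAFB and 77 to 98 in ERH. Whether the remaining mir-425 came from a few unaffected cells or from a little RNA in every cell cannot be told apart in bulk libraries.

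mir-191 stood at 23871, 23461 and 19821 CPM with control guide 1 and at 20253, 21453 and 20315 CPM with control guide 2. With SAFB guide 1 it was 23553, 27031 and 17563 CPM, and with SAFB guide 2 it was 29760, 22661 and 29071 CPM. With ERH guide 1 it was 23865, 17767 and 20682 CPM, and with ERH guide 2 it was 27076, 19466 and 18890 CPM. The 3 genotypes overlapped fully. The lowest mir-191 library was SAFB guide 1 of batch 3 and the highest SAFB guide 2 of batch 1, so the SAFB libraries alone spanned the whole range. mir-191 ranked between 8 and 12 in every library.

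**Figure D1:**
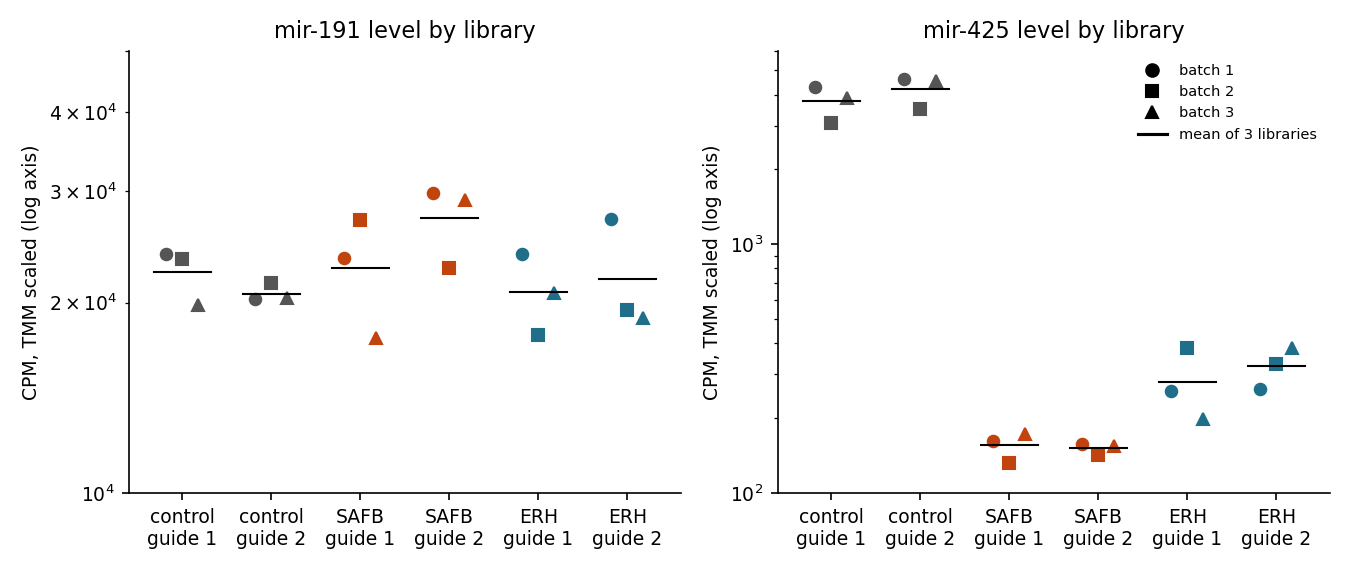
Level of mir-191 (left) and mir-425 (right) in each of the 18 libraries, in TMM-scaled CPM on log axes, by guide population; marker shapes are batches, colours genotypes and bars the mean of 3 libraries. mir-191 lies between 17563 and 29760 CPM in all populations, while mir-425 drops from at least 3072 CPM in control to at most 173.4 in SAFB and 382.0 in ERH.

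The fitted changes against control put numbers on this pattern. In edgeR's fit the log2 fold change of mir-425 was -4.69 (SE 0.15) in SAFB and -3.72 (SE 0.15) in ERH. That of mir-191 was 0.21 (SE 0.11) and -0.016 (SE 0.11). As background, edgeR called 56% of the 273 tested miRNAs in SAFB and 53.8% in ERH at an adjusted p under 0.05; no call is given for the members. All 6 knockout libraries of mir-425 lay below all 6 control libraries, which was true of 17.2% of tested miRNAs in SAFB and of 17.9% in ERH. The pair was picked on this contrast, and nothing is read from these shares. The SAFB value of mir-191 ran from 0.20 to 0.35 over the 18 fits that left out 1 library, with 0.35 without SAFB guide 1 of batch 3 and 0.32 without SAFB guide 2 of batch 2. It was 0.51 without the whole SAFB guide 1 population. Its ERH value ran from -0.033 to 0.063 over the same 18 fits and was above 0 in 15 of them. The fold change of mir-425 was the lowest of the 273 in each knockout. The next lowest was mir-15a at -3.61 in SAFB and mir-15b at -3.26 in ERH. Because mir-191 is so much more abundant, the summed level of the pair hid the change: control had 25512 ± 1583 CPM, SAFB 25094 ± 4602 CPM and ERH 21593 ± 3475 CPM (mean ± SD over 6 libraries).

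The ratio of the members within a library gives the same comparison free of scaling. For every 100 mir-191 reads, mir-425 had 18.003, 13.1 and 19.6 reads with control guide 1 and 22.8, 16.4 and 22.2 reads with control guide 2. It had 0.687, 0.491 and 0.987 reads with SAFB guide 1 and 0.532, 0.628 and 0.533 with SAFB guide 2. It had 1.08, 2.15 and 0.964 reads with ERH guide 1 and 0.967, 1.70 and 2.02 with ERH guide 2. Control cells thus had 18.7 ± 3.66 mir-425 reads per 100 of mir-191, against 0.643 ± 0.184 in the SAFB group and 1.48 ± 0.543 in the ERH group (mean ± SD over 6 libraries). The log2 ratio was lower than in control by 4.88 in SAFB (difference -4.88, SE 0.19), a 29.4-fold drop, and by 3.72 in ERH (difference -3.72, SE 0.25), a 13.1-fold drop. Within batches 1, 2 and 3 the difference was -5.06, -4.72 and -4.85 in SAFB, and -4.31, -2.94 and -3.90 in ERH. With each knockout guide set against each control guide it ran from -5.17 to -4.59 in SAFB and from -3.95 to -3.48 in ERH. All of these differences were negative, and each SAFB value was further from 0 than each ERH value.

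**Figure D2:**
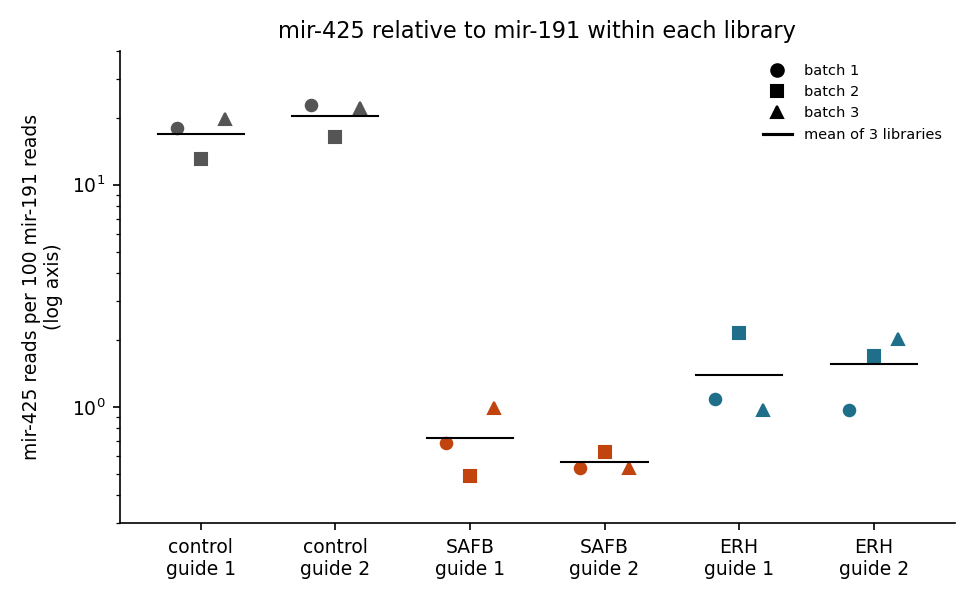
mir-425 reads per 100 mir-191 reads in each library (log axis), by guide population; marker shapes are batches and bars the mean of 3 libraries. Control libraries lie between 13.1 and 22.8, SAFB libraries between 0.491 and 0.987 and ERH libraries between 0.964 and 2.15.

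ERH was also set against SAFB directly. The pair was picked on its pattern over all 3 genotypes, so these values too are a description. The fitted level of mir-425 was higher in ERH, by 0.97 on the log2 scale (SE 0.14). In this comparison 39.6% of tested miRNAs were called and 23.8% were called higher, and mir-425 had rank 47 by fold change. Nothing is read from these shares. The split of calls over all miRNAs turned on the scaling: 65 higher and 43 lower under TMM, 115 and 8 under total counts, and 111 and 1 under spike-ins. All 6 ERH libraries of mir-425 lay above all 6 SAFB libraries in CPM, as did 14.3% of tested miRNAs. mir-191 was at -0.23 (SE 0.11). It was between -0.33 and -0.29 when SAFB guide 1 of batch 3, SAFB guide 2 of batch 2 or ERH guide 2 of batch 1 was left out, and -0.43 without the whole SAFB guide 1 population. The log2 ratio of mir-425 to mir-191 was higher in ERH by 1.16 (SE 0.27), a 2.24-fold difference. Of the 6 ERH libraries, 4 lay above every SAFB library. The other ERH libraries, guide 1 of batch 3 at 0.964 and guide 2 of batch 1 at 0.967, lay just under SAFB guide 1 of batch 3 at 0.987 reads per 100. Within batches the difference was 0.76, 1.78 and 0.95.

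Guides of the same genotype gave the background of this ratio. Guide 2 minus guide 1 was 0.28 (SE 0.23, exact permutation p = 0.3) in control, -0.30 (SE 0.30, exact permutation p = 0.4) in SAFB and 0.19 (SE 0.48, exact permutation p = 0.9) in ERH. Within batches 1, 2 and 3 the control guides differed by 0.34, 0.32 and 0.18. The SAFB guides differed by -0.37, 0.36 and -0.89, and the ERH guides by -0.16, -0.34 and 1.07. The permutation did not pair libraries by batch. With 3 against 3 libraries the smallest possible p is 0.1, and the adjusted values were 0.45, 0.48 and 0.90. The pair was picked for its differences between genotypes, so these shifts are not set against them. The ERH guides could differ by more than the test can show. edgeR called neither member between guides (adjusted p 0.872 to 0.991 over the 2 members and 3 genotypes); over all tested miRNAs it called 0% in control, 0% in SAFB and 0.366% in ERH, with 7, 10 and 18 miRNAs at an unadjusted p under 0.05, and DESeq2 also called 0, 0 and 1. For mir-425 the fitted shift was 0.17 (SE 0.19) in control, -0.037 (SE 0.19) in SAFB and 0.21 (SE 0.19) in ERH.

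Synthetic spike-in RNAs, added to the same amount of total RNA, allow each member to be read per total RNA. Per 1000 spike-in reads, mir-425 had 889.2, 1638 and 2092 reads as the lowest, median and highest control library. The same values were 34.4, 54.8 and 64.7 in SAFB and 77.6, 171.2 and 212.7 in ERH. On this scale too every ERH library lay above every SAFB library, and the log2 difference was 1.45 (SE 0.30). Within batches it was 0.98, 2.35 and 1.02. mir-191 had 6.56, 8.32 and 11.8 reads per spike-in read in control, 6.54, 8.02 and 10.6 in SAFB and 7.36, 8.60 and 17.5 in ERH. The ERH minus SAFB difference of mir-191 was 0.29 (SE 0.24), and 0.22, 0.57 and 0.079 within batches. It was -0.055 without ERH guide 2 and 0.63 without ERH guide 1. Against control the spike-in scaled difference of mir-425 was -4.92 (SE 0.25) in SAFB and -3.47 (SE 0.33) in ERH. That of mir-191 was -0.040 (SE 0.19) and 0.25 (SE 0.24). Spike-in scaling also separated the guides of control and of ERH: in edgeR it gave mir-425 a shift of 0.80 between control guides and 0.78 between ERH guides, and mir-191 shifts of 0.55 and 0.74 (adjusted p 0.027 to 0.048).

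The direction given for mir-191 depended on the scale as well as on single libraries, whereas that of mir-425 did not. Under 4 scalings (TMM, DESeq2 size factors, total counts and spike-ins) the fold change of mir-191 in SAFB was 0.21, 0.26, 0.25 and -0.043, and in ERH -0.016, 0.053, 0.28 and 0.29. Its ERH against SAFB value was -0.23, -0.20, 0.034 and 0.33, so its sign turned. For mir-425 the same scalings gave -4.69, -4.65, -4.65 and -4.95 in SAFB. In ERH they gave -3.72, -3.64, -3.40 and -3.43. For ERH against SAFB the mir-425 values were 0.97, 1.01, 1.25 and 1.52. The median over all 273 miRNAs moved with the scaling as well, from -0.061 under TMM to 0.24 under total counts in ERH, and from 0.042 under TMM to 0.57 under spike-ins from SAFB to ERH. Relative to that median, mir-191 was lower in ERH than in SAFB under both scalings. A ratio within a library shows that the members changed unequally, not that mir-191 was unchanged.

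**Figure D3:**
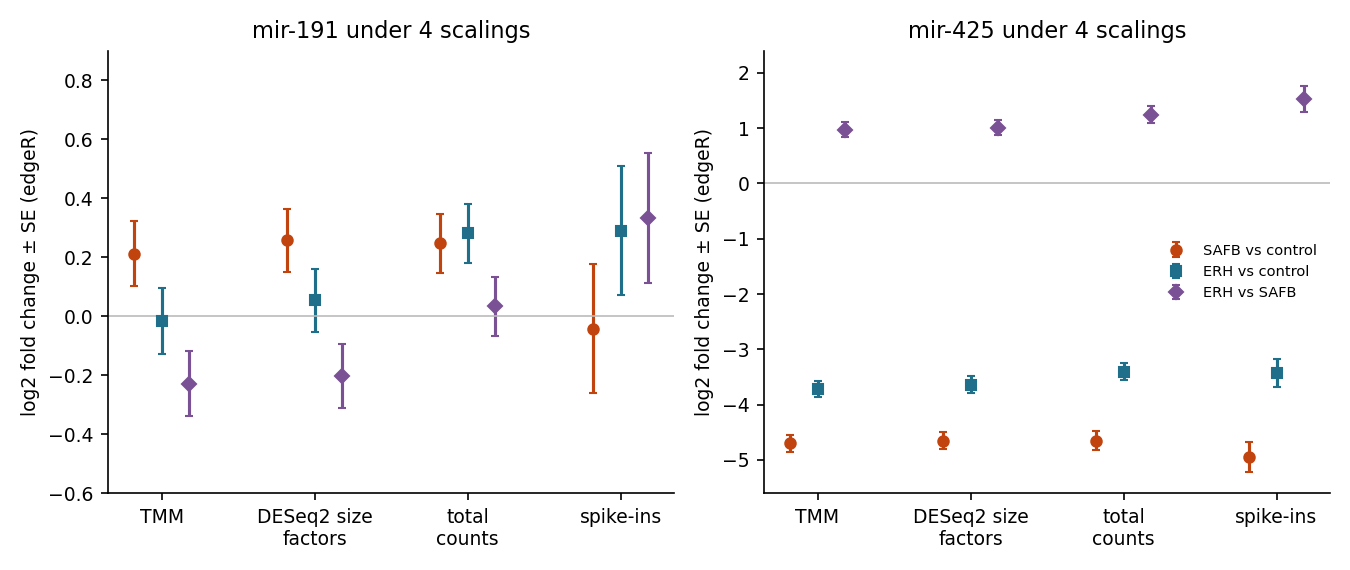
log2 fold changes of mir-191 (left) and mir-425 (right) with SE from edgeR, for 3 contrasts under 4 scalings of the 18 libraries; the vertical axes differ. mir-425 stays between -4.95 and -3.40 against control under each scaling, while mir-191 stays within 0.33 of 0 and changes sign.

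The spread between libraries of a population is given beside the counting error. That error covers read sampling alone, so nothing is read from the gap between them. The counting error of the log2 ratio was 0.012 to 0.016 in control libraries, and 0.038 to 0.065 in knockout libraries, where mir-425 had fewer reads. The SD around population means was 0.44 for the log2 ratio, 0.28 for the log2 CPM of mir-425 and 0.22 for that of mir-191. Taken over all populations, the deviations of the members did not move together. In SAFB guide 2 they did: both members were highest in batch 1 and lowest in batch 2. Over the 18 libraries, which share library totals and scaling, the deviation of mir-425 correlated with that of mir-191 at r = -0.52. In batch 2, mir-425 was the lowest of the 3 libraries in both control and both SAFB populations, and not in either ERH population. Batch 2 is also where the ERH minus SAFB difference in the ratio was largest, at 1.78. The ratio therefore spread more within populations than either member alone. Of 15 sets of 6 libraries (5 measures of the members in 3 genotypes), 0 had a library set far apart from the others by Dixon's test.

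**Figure D4:**
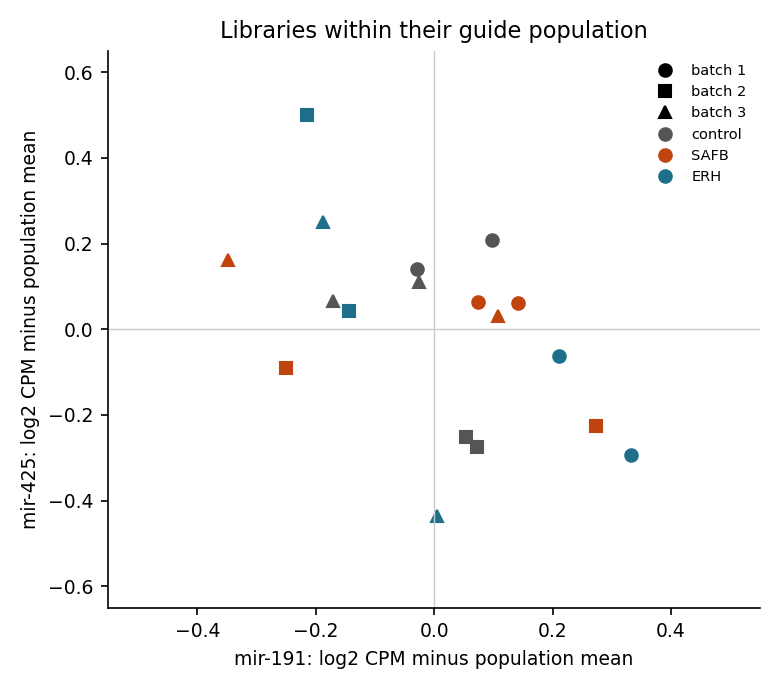
Deviation of each library from the mean of its guide population for mir-191 (horizontal) and mir-425 (vertical), in log2 CPM; colours are genotypes and shapes batches. Over the 18 libraries r = -0.52, but not every population follows this. In SAFB guide 2 both members are highest in batch 1 and lowest in batch 2.

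Other clusters were read in the same way. The annotation gave 30 pairs of neighbouring miRNA genes on the same strand within 10 kb, with a single gene copy and a mean of at least 100 control counts for each member; they hold 31 miRNAs, and many pairs share a member. Each pair was written in the order in which its log2 ratio fell in SAFB, whether or not the member on top fell itself. The ratio of mir-425 to mir-191 changed most of the 30 pairs in each knockout, while the median size of the change was 0.31 in SAFB and 0.19 in ERH. Only 3 pairs changed by more than 1 in SAFB, and 6 in ERH. mir-130b over mir-301b, neighbours of the same miRNA family, changed by -1.75 in SAFB and by -2.02 in ERH. mir-421 over mir-374b changed by -1.63 in SAFB and by 0.11 in ERH; in ERH both fell, by fitted log2 changes of -1.51 and -1.61. In SAFB the next pairs were mir-106b over mir-25 at -0.66 and mir-450b over mir-542 at -0.58. In ERH they were mir-19a over mir-17 at -1.70, mir-19a over mir-20a at -1.55 and mir-503 over mir-542 at -1.04. Among these 30 pairs the largest other change was thus 1.75 in SAFB and 2.02 in ERH, against 4.88 and 3.72 for mir-425 over mir-191. The 48 entries with more than 1 annotated gene were left out, and the clustered mir-16 and mir-194 are in none of the 30 pairs. In fitted log2 changes mir-15a was at -3.61 and mir-16 at 0.21 in SAFB, and at -2.59 and -0.27 in ERH. For mir-192 and mir-194 the values were -3.22 and 0.23 in SAFB, and -1.41 and 0.44 in ERH. These ranks describe the contrast the pair was picked on. With a lower limit of 20 counts, let-7e over mir-125a entered the list. It changed by -3.16 in SAFB, then the largest change of any other pair. In ERH it changed by -4.19, past mir-425 over mir-191 at -3.72. The fitted log2 change of mir-125a was 3.61 in SAFB and 4.85 in ERH, and that of let-7e 0.48 and 0.74.

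**Figure D5:**
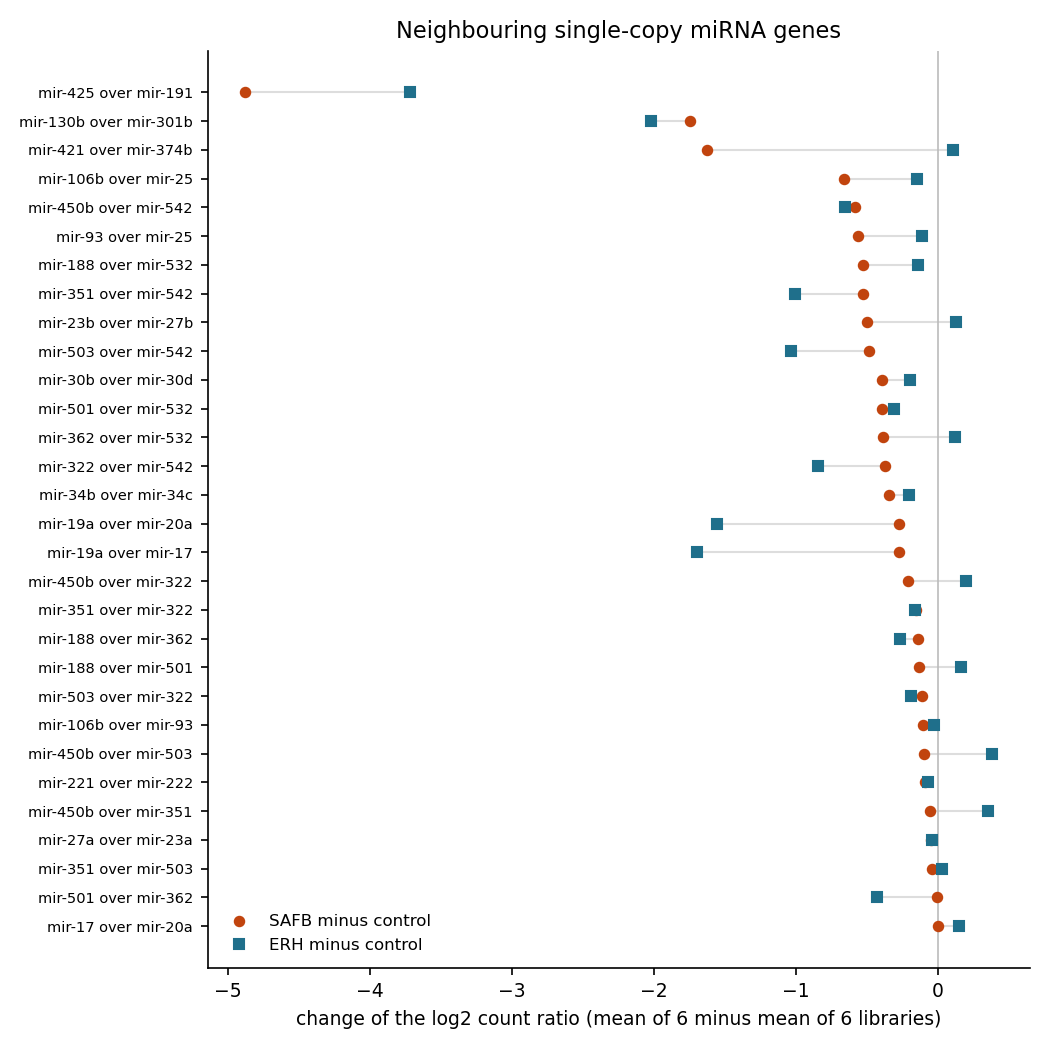
Change of the log2 count ratio of 30 neighbouring single-copy miRNA pairs, knockout minus control (means of 6 libraries), with SAFB as circles and ERH as squares. mir-425 over mir-191 stands apart at -4.88 and -3.72, followed by mir-130b over mir-301b at -1.75 and -2.02.

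The miRNAs whose levels ran most like each member were sought among 152 others with a mean of at least 100 counts, by Pearson's r of log2 CPM over the 18 libraries. The libraries share genotypes, so r mainly reflects the genotype means. For mir-425 the closest were mir-15a (r = 0.99), the assisted neighbour of mir-16-1, then mir-130b (0.96), mir-15b (0.95), mir-27b (0.95) and mir-20a (0.94). The knockout cells were sorted on miR-15a activity, so the level of mir-15a is tied to the sort. Like mir-425 it was lower in SAFB than in ERH, at fitted log2 changes of -3.61 (SE 0.14) in SAFB and -2.59 (SE 0.13) in ERH. mir-130b was at -2.37 and -2.49, and mir-15b at -3.02 and -3.26, so under TMM neither was lower in SAFB than in ERH. Fitted directly, ERH against SAFB was -0.11 (SE 0.084) for mir-130b and -0.24 (SE 0.091) for mir-15b. The median of this contrast moved with the scaling, and these 2 miRNAs are given under TMM alone. mir-27b and mir-20a changed by less than 1 in either knockout, at -0.89 and -0.72 and at -0.74 and -0.63. By ranks (Spearman's rho) mir-181b came first at 0.96 and mir-15a next at 0.93. Deviations from population means, which genotype does not enter, gave r with mir-425 of 0.42 for mir-15a, -0.15 for mir-130b, 0.066 for mir-15b, -0.35 for mir-27b and 0.53 for mir-20a. For mir-191 the closest were mir-674 (r = 0.81), mir-140 (0.80), mir-328 (0.77), let-7b (0.69) and mir-30d (0.66), and mir-425 itself was at -0.29. In deviations from population means the r of mir-191 was 0.92 with mir-674, 0.84 with mir-140, 0.87 with mir-328, 0.92 with let-7b and 0.55 with mir-30d. These values come from the libraries that chose the 5, so they restate the choice in part.

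Beyond the members, the list of clustered miRNAs considered, from mir-15a to mir-365, had 33 entries, of which 27 were tested. In SAFB 5 rose, 12 fell and 10 were not called, with a median log2 fold change of -0.17 against 0.0083 over all tested miRNAs. The shares over all tested miRNAs are 30.8% higher and 25.3% lower in SAFB. In ERH 6 rose, 16 fell and 5 were not called, with a median of -0.24 against -0.061, where 26.4% of all were called higher and 27.5% lower. Under total counts the calls in ERH over all miRNAs were 108 higher and 33 lower rather than 72 and 75, and under spike-ins those in SAFB were 44 higher and 58 lower rather than 84 and 69. mir-221 and mir-222, a pair transcribed together, were at -0.17 (SE 0.073) and -0.062 (SE 0.076) in SAFB and at -0.076 (SE 0.073) and -0.0080 (SE 0.076) in ERH, and neither was called. Their ratio, unlike that of mir-425 to mir-191, moved by less than 0.1 in either knockout. Unequal changes on the list were not particular to mir-425 and mir-191. Those of mir-15a and mir-16 and of mir-192 and mir-194 are given above. In fitted log2 changes mir-29c was at -2.83 and mir-29b at -0.32 in SAFB, and at -1.21 and -0.24 in ERH. For mir-98 and let-7f the values were -2.39 and -0.68 in SAFB, and -2.81 and -0.83 in ERH. In ERH against SAFB 7 of the 27 rose and 7 fell, with a median of 0.054 against 0.042 over all. Of all tested miRNAs, 23.8% were called higher and 15.8% lower.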

How the data were processed

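Small RNA libraries (QIAseq miRNA kit, per the labels' protocols) were made from 18 RNA samples with 4 spike-in RNAs. The authors deposited whole-number read counts per miRNA precursor, not normalized; SAMtools is named in the submitters' processing notes, and the aligner, counter and build are not given in the sources used here. The sources used here do not say whether molecular identifiers were collapsed; counting errors given here cover read sampling alone. Counts were tested with edgeR 4.0.16 (R 4.3.3; filterByExpr, minimum count 10, by population; TMM; quasi-likelihood; one mean per genotype or population; Benjamini-Hochberg over 273 miRNAs), with DESeq2 1.42.0 as an alternative. Spike-ins stayed out of library sizes. The SE of a fold change is its size over the square root of F. Log2 ratios were compared by exact two-sided permutation, 6 tests adjusted together; those of ERH against SAFB are given without p-values, since the pair was picked on all 3 genotypes. Likeness used log2(CPM + 1). Folding used RNAfold 2.7.2. Libraries of a population have no stated separate cultures, so p-values and SEs measure the spread between these libraries. The SE of a difference between genotypes treats the 6 libraries of a genotype as separate, although they come from 2 guide populations.

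The named miRNAs were the members, the 5 most like each, the 5 neighbour pairs of largest change in either knockout, cell markers and a cluster list; let-7e, mir-125a, mir-181b and mir-489 were named after their values were seen. Members and lists were chosen with earlier results of these data known. The labelled batch pairs libraries across populations; deviations correlated on average by 0.094 within and -0.047 between batches (miRNAs of at least 100 mean counts). On simulated counts for SAFB against control (603 miRNAs, 281 tested), 100% of 23 miRNAs lowered 8-fold, 75% of 12 lowered 2-fold, 89.2% of 37 raised 8-fold and 85.7% of 35 raised 2-fold were called.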

Additional observations from a re-analysis of the deposited data

How the results depend on the processing

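The fall of mir-425 and of its ratio to mir-191 kept direction and size under every alternative run. The ratio difference lay between -5.03 and -4.73 in SAFB and between -3.86 and -3.58 in ERH over 18 alternatives each. Leaving out single libraries gave -5.01 to -4.81 and -3.84 to -3.61. In ERH minus SAFB it gave 1.04 to 1.29, and leaving out populations 1.01 to 1.31. With the replicate block (batch as a term) the calls over all miRNAs went from 153, 147 and 108 to 155, 146 and 110 and the mir-425 value of ERH against SAFB was 0.98; between guides the call of neither member changed. Single libraries left out moved the guide differences in the ratio to 0.11 to 0.43 in control, -0.55 to -0.046 in SAFB and -0.032 to 0.55 in ERH. The spike-in scaled mir-191 difference ran from 0.13 to 0.38 without single libraries; without ERH guide 1 it was 0.63 and without ERH guide 2 -0.055. That of mir-425 ran from 1.33 to 1.62 without single libraries and from 1.01 to 1.89 without single populations.

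Calls without single libraries ranged from 139 to 157 in SAFB, 139 to 150 in ERH, 95 to 112 in ERH against SAFB and 1 to 2 between ERH guides. Spike-in scaling gave 91 calls in ERH, 96 between control guides and 110 between ERH guides; no filter gave 4 between ERH guides. In ERH against SAFB, mir-191 was -0.26 with no filter, 0.034 under total counts and 0.33 under spike-ins, and between control guides 0.55 under spike-ins. Leaving out single libraries moved mir-425 between SAFB guides over -0.17 to 0.039 (0.0091 without SAFB guide 2 of batch 2) and between ERH guides over -0.0028 to 0.49, and mir-191 between ERH guides over -0.096 to 0.15 (-0.043 without ERH guide 1 of batch 2). The 20-count limit put the pair at rank 2 in ERH. Spearman's rho put mir-181b first for mir-425, at 0.96. With 20 flanking bases the free energies were -47.9 and -40.4 kcal/mol, and the mir-425 fold gained terminal loops. The causes were not tested.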
